A study of Mus musculus with 6 samples.

Results

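The CC chemokine genes Ccl3, Ccl4 and Ccl5, the cyclooxygenase gene Ptgs2 and the interleukin-1 receptor antagonist gene Il1rn were followed in RAW264.7 cells, a tumour-derived mouse macrophage line. They were taken by gene name from the deposited table, and all 5 were found among its 345 genes. RNA was sequenced from 3 libraries of untreated cells (Control) and 3 libraries of cells held for 48 h in diluted extract of a gyroid (G) scaffold printed from the Zn-0.8Li alloy (G scaffold). Both groups were the same cell line, and the labels name no engineered allele and no further stimulus. The labels do not say whether the 3 libraries of a group came from separate cultures, so the p-values measure the spread between these libraries, which may be technical. The comparison asks how macrophage gene expression differed after exposure to the scaffold extract.

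CC chemokines are small secreted proteins that draw leukocytes along a gradient. Ccl3, Ccl4 and Ccl5 (macrophage inflammatory proteins 1-alpha and 1-beta, and RANTES) are made by macrophages soon after stimulation. Ptgs2 encodes the inducible cyclooxygenase that starts prostaglandin synthesis. Il1rn encodes a protein that occupies the interleukin-1 receptor without signalling and so restrains interleukin-1. All 5 are textbook genes of macrophage activation, and Il1rn differs from the other 4 in that its product dampens inflammation.

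The values were normalized read counts, that is, reads of a gene divided by 1 size factor per library. Dividing by the smallest nonzero value of a library gave whole reads for 100% of the values (tolerance 0.01 reads). The size factors lay between 0.924 and 1.05, and the listed genes together held between 88836 and 156029 reads per library, which is not the sequencing depth. The table holds genes that had already passed the study's own test on these libraries, so each of the 5 had to differ between the groups. A second scaling, edgeR's trimmed mean of M-values (TMM) computed over the listed genes, is given where it turns a direction. TMM takes most genes as unchanged, which cannot hold in a table of called genes. Its values show how far a log2 fold change depends on the scaling and do not decide a direction. The tests describe the size of the differences and are no independent evidence of them. Of 20 macrophage identity markers, 2 were listed, so the others could not be used to check the cells. Mpeg1, 1 of the 2, fell by 1.03 on the log2 scale. Of 21 markers of other cell types, Col1a1 was listed, with 0 reads in each Control library and from 4.89 to 8.68 normalized counts in the G scaffold libraries. Its part in the results was not tested. In RNA from whole cultures, more cells expressing a gene and more RNA per expressing cell cannot be told apart.

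The start regions of the members are shown as a description only. All 5 genes were called higher in the G scaffold group, as were 82.6% of the listed genes, so the common direction is no trait of the 5. RefSeq windows of 250 bases before to 50 after a transcription start, in build GRCm38.p6, were matched for 3 of the 5 members (Ccl3, Ptgs2 and Il1rn). Capitals mark matches, on either strand, to an AP-1 site (TGANTCA), a cAMP response element core (TGACG), an E-box (CACGTG), a metal response element (TGCACNC or TGCGCNC) or an NF-kB site. AP-1 sites are bound by factors of the Fos and Jun family and the cAMP response element by CREB, and the metal response element is bound by the zinc sensor Mtf1. The window of Ccl3 is chr11:83649329-83649628 on the minus strand, that of Ptgs2 chr1:150099781-150100080 on the plus strand, and the upstream one of 3 for Il1rn chr2:24336610-24336909 on the plus strand.
Ccl3: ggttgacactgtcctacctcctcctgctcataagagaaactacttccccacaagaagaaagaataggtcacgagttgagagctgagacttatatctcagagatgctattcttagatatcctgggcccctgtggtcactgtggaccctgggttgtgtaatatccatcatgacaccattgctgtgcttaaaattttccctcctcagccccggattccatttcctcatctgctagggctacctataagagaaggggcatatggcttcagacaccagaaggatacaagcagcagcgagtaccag
Ptgs2: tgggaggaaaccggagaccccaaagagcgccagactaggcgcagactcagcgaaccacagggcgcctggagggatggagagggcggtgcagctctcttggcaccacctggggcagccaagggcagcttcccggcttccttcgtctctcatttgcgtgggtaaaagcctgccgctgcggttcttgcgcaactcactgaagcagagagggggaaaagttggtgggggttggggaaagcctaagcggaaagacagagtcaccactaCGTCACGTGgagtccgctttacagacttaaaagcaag
Il1rn: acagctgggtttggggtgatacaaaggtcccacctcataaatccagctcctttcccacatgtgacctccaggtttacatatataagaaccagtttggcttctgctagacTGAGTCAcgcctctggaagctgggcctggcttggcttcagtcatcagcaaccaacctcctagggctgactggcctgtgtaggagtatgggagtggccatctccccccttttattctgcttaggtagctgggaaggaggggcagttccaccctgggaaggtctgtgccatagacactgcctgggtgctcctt

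In the Ptgs2 window, such a core and an E-box shared bases and began 14 and 17 bases from the RefSeq start, counted from 1 at its first transcribed base. The core was found in 20.8% and an E-box in 7.15% of all 32851 windows. The upstream Il1rn window held 1 AP-1 match, which is found in 7.81% of windows. The Ccl3 window and the other 2 Il1rn windows, which overlap each other, held no match. None of the 5 windows held a metal response element (25.7% of all windows) or an NF-kB match (4.51%). These matches describe the letters of the windows and are no evidence of binding.

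Messages of many inflammatory genes carry AU-rich elements in their 3' untranslated region, and the repeated pentamer ATTTA is their core. In the GENCODE M21 transcripts of GRCm38, taking the longest 3' untranslated region of each gene, the pentamer was counted 14 times in Ptgs2, 5 times in Ccl3 and 2 times in Ccl4, and 0 times in Ccl5 and Il1rn. Per 1000 bases this was 5.73 in Ptgs2, 12.2 in Ccl3 and 6.62 in Ccl4, against a median of 1.23 over 20987 genes. The stretch of 30 bases with the most pentamers, shown in capitals, is given for these 3 genes.
Ptgs2: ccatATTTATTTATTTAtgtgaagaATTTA
Ccl3: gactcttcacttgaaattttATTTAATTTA
Ccl4: ttcagatttcctgcccctcttcttaATTTA
The Ptgs2 stretch held 4 pentamers, 3 of them overlapping in a run. The 5 genes therefore fell into those with the pentamer (Ptgs2, Ccl3 and Ccl4) and those without it (Ccl5 and Il1rn). At least 1 pentamer was found in 65.0% of the 20987 genes, so 3 of 5 lies near that share. As many pentamers or more were found in 2.95% of genes for Ptgs2, 21.5% for Ccl3 and 46.9% for Ccl4.

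All 5 genes rose in the G scaffold group in the scaling as deposited, although Ccl3 turned to -0.38 on the log2 scale with TMM factors. A gene was called when limma on log2(normalized count + 1) gave a Benjamini-Hochberg adjusted p up to 0.05 and its log2 fold change was 1 or more in size. Across the table, 82.6% of the listed genes were called higher by this rule, so 5 of 5 lies near the background of the table. In each of the 5 the 3 G scaffold libraries lay above the 3 Control libraries, as in 82.9% of the listed genes. The 5 had a median log2 fold change of 2.23, against 1.87 over the whole table. Fold changes on this scale understate the change of genes with few reads.

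**Figure D1:**
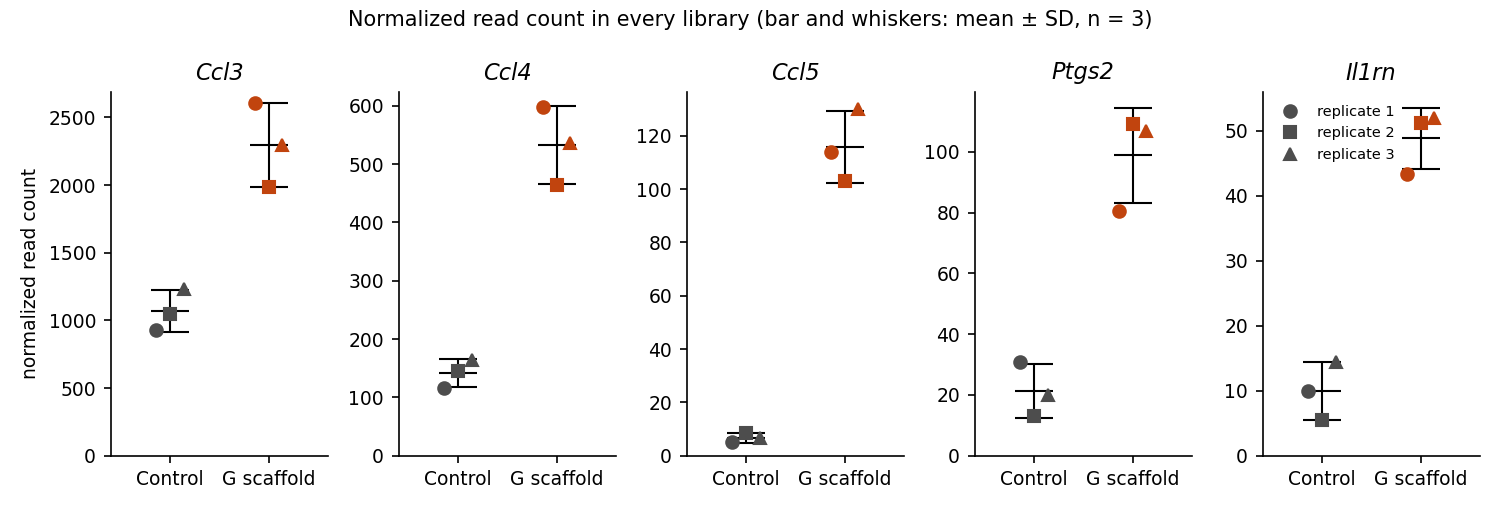
Normalized read count of each gene (vertical axes, each from 0) in the 3 Control and 3 G scaffold libraries, with the mean and SD (n = 3). In every panel the G scaffold points lie above the Control points, from 1.61 times the highest Control value for Ccl3 to 11.9 times for Ccl5. With TMM factors the change of Ccl3 is -0.38 (log2) and is not called. In a table of called genes that scaling does not decide a direction.

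Ccl3, identifier MGP_SPRETEiJ_G0017726, lies on the minus strand of chromosome 11, from 84002580 to 84004086 in the coordinates of the SPRET/EiJ annotation. The Control libraries held 930.1, 1045 and 1235 normalized counts of it. The G scaffold libraries held 2603, 1986 and 2296. The lowest G scaffold library held 1.61 times the level of the highest Control library, the smallest such gap among the 5. The mean rose from 1070.3 ± 154 to 2295 ± 309 (SD, n = 3 in each group), a 2.14-fold difference. The log2 fold change was 1.10 (standard error 0.175, adjusted p = 0.00101, limma), and it was -0.38 with TMM factors. Ccl3 was thus the most abundant of the 5, also per kb, and the least changed: by mean level it ranked 11 of 345 in Control and 10 after exposure, and by log2 fold change 268.

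Ccl4 (MGP_SPRETEiJ_G0017727, chromosome 11 from 84017327 to 84021155, plus strand) is the neighbour of Ccl3 and is transcribed away from it, with 13.2 kb between the gene models. Its normalized counts were 116, 145 and 163 in Control and 598, 464 and 536 in the G scaffold group. Every G scaffold library held at least 2.84 times the highest Control value. The mean rose from 142 ± 23.8 to 532 ± 66.9 (SD, n = 3 in each group), with a log2 fold change of 1.91 (standard error 0.184, adjusted p = 1.3e-04, limma).

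Ccl5 (MGP_SPRETEiJ_G0017722, chromosome 11 from 83879070 to 83883757, minus strand) lies 119 kb before Ccl3 on the same chromosome. In Control it was close to the detection limit, with 5, 8 and 7 reads, which are 4.97, 8.66 and 6.69 normalized counts. In the G scaffold libraries it reached 113, 107 and 133 reads, or 114, 103 and 130.2 normalized counts. The groups were 11.9-fold apart at their nearest libraries, the widest gap among the 5. The means were 6.77 ± 1.85 and 116 ± 13.6 (SD, n = 3 in each group), a 17.1-fold difference. The log2 fold change was 3.93 (standard error 0.213, adjusted p = 1.4e-05, limma), which ranked 38 of 345. It stayed past the thresholds with TMM factors (2.54), which held for none of the other 4.

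Within 1000 kb of the 3 chemokine genes the table lists 4 genes, the fourth being Dusp14 (log2 fold change 2.62), which encodes a dual-specificity phosphatase. The coding sequences of Ccl3 and Ccl4 are 70.0% identical over 273 aligned bases in GENCODE M21, those of Ccl3 and Ccl5 61.5% and those of Ccl4 and Ccl5 59.4%. The longest run of bases shared by the mature transcripts was 9 for Ccl3 and Ccl4, 13 for Ccl3 and Ccl5 and 9 for Ccl4 and Ccl5. Strand use in counting is not given in the sources used here, and the 3 gene models do not overlap in the coordinates of the table.

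Ptgs2 (MGP_SPRETEiJ_G0015492, chromosome 1 from 151538752 to 151556977, plus strand) had 30.8, 13.0 and 20.1 normalized counts in Control, from 31, 12 and 21 reads. The G scaffold libraries had 80.6, 109 and 107. Control replicate 1 was the highest Control library for Ptgs2 and G scaffold replicate 1 the lowest of its group, and these nearest libraries still differed 2.62-fold. The means were 21.3 ± 8.97 and 98.8 ± 15.8 (SD, n = 3 in each group), a 4.64-fold difference. The log2 fold change was 2.23 (standard error 0.320, adjusted p = 6.3e-04, limma).

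Il1rn (MGP_SPRETEiJ_G0024153, chromosome 2 from 22059063 to 22074564, plus strand) was, per kb, the lowest of the 5 in both groups. It had 10, 5 and 15 reads in Control, which are 9.94, 5.41 and 14.3 normalized counts, and 43.3, 51.1 and 51.9 normalized counts in the G scaffold group. The coefficient of variation was 45.1% over the Control libraries and 9.69% over the G scaffold libraries, and the groups were 3.02-fold apart at their nearest libraries. The means were 9.89 ± 4.46 and 48.8 ± 4.73 (SD, n = 3 in each group), a 4.93-fold difference. The log2 fold change of 2.28 (standard error 0.325, adjusted p = 6.2e-04, limma) stood beside 2.23 for Ptgs2. The restraining gene of the 5 rose beside the cyclooxygenase and chemokine genes in the scaling as deposited. The same direction was called for 82.6% of the listed genes.

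Levels of different genes were compared per 1000 bases of gene length as the table lists it. In Control the order was Ccl3 with 1408 ± 203 normalized counts per kb, Ccl4 with 213 ± 35.8, Ccl5 with 7.06 ± 1.92, Ptgs2 with 4.68 ± 1.97 and Il1rn with 1.72 ± 0.777 (SD, n = 3). Ccl5 and Ptgs2 overlapped there, since Ccl5 ran from 5.18 to 9.03 and Ptgs2 from 2.85 to 6.77 per kb. In the G scaffold group the order was the same, with 3019 ± 406, 802 ± 101, 121 ± 14.2, 21.7 ± 3.46 and 8.50 ± 0.824 per kb, and no neighbours overlapped. The level of Ccl5 had moved clear of Ptgs2, from 107.6 to 135.8 per kb against 17.7 to 24.0.

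**Figure D2:**
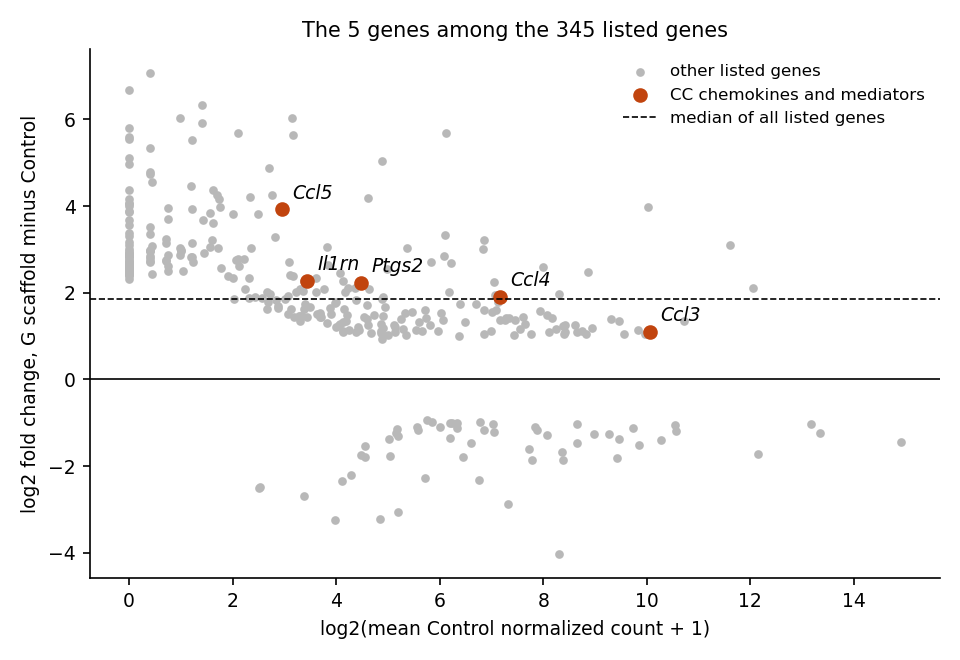
Log2 fold change (vertical axis) against the mean Control level on a log2 scale (horizontal axis) for the 345 listed genes, with the 5 genes named. The 5 run from Ccl3 at 1.10, below the dashed median of 1.87, to Ccl5 at 3.93. With TMM factors, which do not decide a direction in a table of called genes, the value of Ccl3 is -0.38 and is not called.

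Whether the 5 changed by different amounts was asked with ratios of read counts inside each library, in which the size factor cancels. The log2 differences between the groups are of these read ratios, a scale added after the data were seen. The permutation test was run on log2(normalized count + 1), where the pseudocount shrinks the change of genes with few reads and nothing cancels exactly. The number of reads per gene depends on gene length, so the ratios are no ratios of molecules, but their change between groups does not depend on length. Ccl3 had 8.0, 7.21 and 7.56 reads for each read of Ccl4 in the Control libraries. In the G scaffold libraries it had 4.35, 4.28 and 4.29. The ratio thus fell from 7.59 ± 0.396 to 4.31 ± 0.0414 (SD, n = 3), a difference of -0.82 on the log2 scale (-0.81 with the pseudocount), and the groups did not overlap. The coefficients of variation of this ratio were 5.22% and 0.961%, against 14.4% and 13.5% for Ccl3 alone. In both groups they were the lowest among the 10 pairs. Ccl3 and Ccl4 ranked the libraries in the same order within both groups, with replicate 1 lowest and 3 highest in Control, and replicate 2 lowest and 1 highest in the G scaffold group. With 3 libraries per group, and 117, 134 and 171 reads of Ccl4 in Control, read counting alone spreads such a ratio. The narrow spread and the shared order were not tested, and no coupling of the 2 genes is read from them.

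Ccl5 gained on both neighbours. Ccl4 had 23.4, 16.8 and 24.4 reads for each read of Ccl5 in Control and 5.25, 4.50 and 4.11 in the G scaffold group, a log2 difference of -2.21 (-2.02 with the pseudocount). The ratio of Ccl3 to Ccl5 moved from 164 ± 37.7 to 19.9 ± 2.67 (SD, n = 3), a log2 difference of -3.02 (-2.83 with the pseudocount). Against the mediators, the log2 ratio of Ccl5 to Ptgs2 was 1.84 higher and that of Ccl5 to Il1rn 1.72 higher in the G scaffold group (1.70 and 1.65 with the pseudocount).

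The ratio of Ptgs2 to Il1rn was 3.10, 2.40 and 1.40 in Control and 1.86, 2.13 and 2.06 in the G scaffold group. These ranges overlapped, and the log2 difference was -0.12 (-0.046 with the pseudocount). The groups also overlapped for Ccl4 to Ptgs2 (-0.37), Ccl4 to Il1rn (-0.49) and Ccl3 to Ptgs2 (-1.19), and with 5 to 31 reads in Control the mediators limit the precision of these ratios. Of 10 pairs, 6 did not overlap between the groups, with or without the pseudocount, every pair with Ccl5 among them. The pairs share genes, and the share over all pairs of listed genes was not counted. The count of 6 is therefore not read as a trait of the members. Each of the 6 pairs gave p = 0.10 in a two-sided exact permutation test (0.167 after Benjamini-Hochberg adjustment over 10 pairs). This is the smallest p that 3 against 3 libraries allow, so none of the pairs could pass 0.05.

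**Figure D3:**
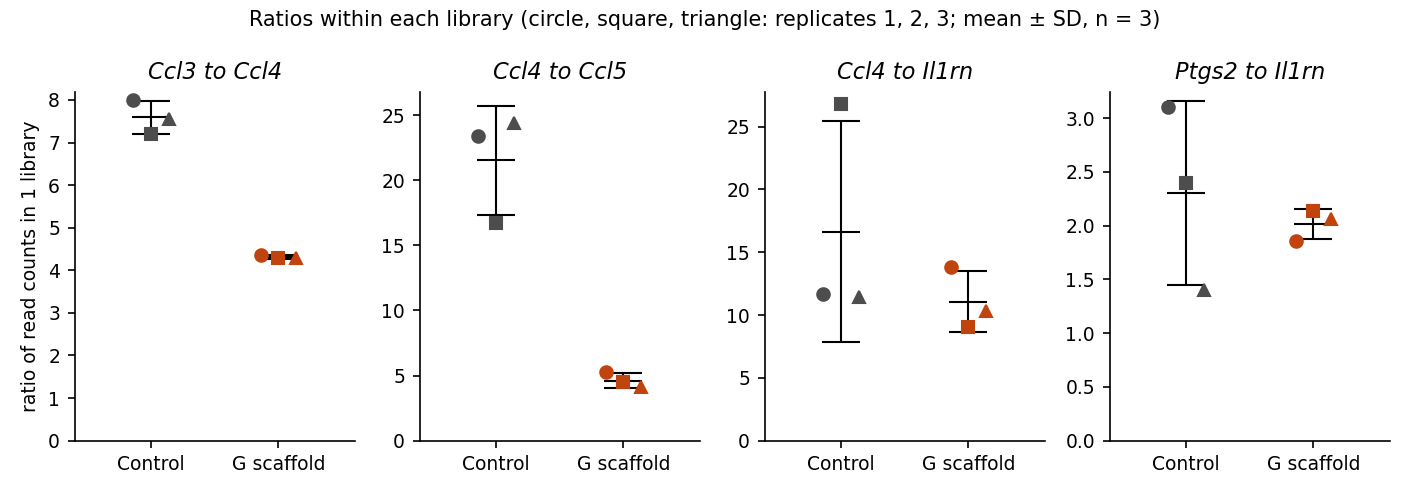
Ratio of read counts of a pair of genes in 1 library (vertical axes, each from 0) for 4 of the 10 pairs, with the mean and SD (n = 3). The points of Ccl3 to Ccl4 and of Ccl4 to Ccl5 do not overlap between the groups, whereas those of Ccl4 to Il1rn and of Ptgs2 to Il1rn do.

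Other genes of the same pathways were looked up in fixed lists, and a gene that is not listed has no value here. Of 36 CC and CXC chemokine ligand genes, 6 were listed and all 6 rose as deposited, Ccl3 reversing with TMM factors. The share called higher over the whole table was 82.6%, and 3 of the 6 are the CC chemokines already described. Their median log2 fold change was 2.10, against 1.87 over the table. Beside the 3 CC chemokines these were Cxcl2, which attracts neutrophils, Cxcl10, which is induced by interferon, and Cxcl14. Cxcl2 had 14.9, 11.9 and 12.4 normalized counts in Control and 126, 119 and 104 in the G scaffold group, a log2 fold change of 3.06. The log2 fold changes of Cxcl10 and Cxcl14 were 2.28 and 1.46, and with TMM factors 0.88 and 0.069. Cxcl2 kept its call there, at 1.62. Of 23 chemokine receptor genes, none was listed.

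Of 22 genes of prostaglandin synthesis, breakdown and reception, 2 were listed and they moved in opposite directions. Hpgd, which encodes the enzyme that inactivates prostaglandins, had 635, 601 and 616 normalized counts in Control and 265, 252 and 256 in the G scaffold group. The groups were far apart, and Hpgd fell by 1.26 on the log2 scale (standard error 0.117, adjusted p = 1.1e-04, limma), while Ptgs2 rose by 2.23. Hpgd was at -2.74 with TMM factors, so its direction was kept. Per kb, Hpgd went from 344 to 144 normalized counts and Ptgs2 from 4.68 to 21.7. The terminal synthases and prostaglandin receptors of the list have no value here.

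Of 28 genes of the interleukin-1 family and its signalling, the listed 2 were Il1rn and Il1r1, the receptor that Il1rn blocks. Il1r1 had 0 reads in each Control library and 8.06, 6.75 and 2.94 normalized counts in the G scaffold libraries, so it was present at a low level there. Of 26 NF-kB feedback and target genes, Ier3 was listed and rose by 1.49 on the log2 scale, a value of 0.0051 with TMM factors. Of 20 genes on a list of cytokines and nitric oxide synthase, Lif was listed, with 0, 1 and 0 reads in Control against 5, 13 and 3 reads after exposure.

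Of 8 mRNA decay factors that act on AU-rich elements, Zfp36 was listed. It encodes tristetraprolin, which binds such elements and shortens the life of the message. It had 836, 971 and 915 normalized counts in Control and 2041, 1933 and 2050.0 in the G scaffold group. Its log2 fold change of 1.15 (standard error 0.127, adjusted p = 2.2e-04, limma) stood beside 1.10 for Ccl3, and both reversed with TMM factors, to -0.34 and -0.38. The 3 members with the pentamer had log2 fold changes of 1.10, 1.91 and 2.23, and the 2 without it 2.28 and 3.93, a difference that was not tested. The values 2.23 (Ptgs2) and 2.28 (Il1rn) had standard errors of 0.320 and 0.325.

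**Figure D4:**
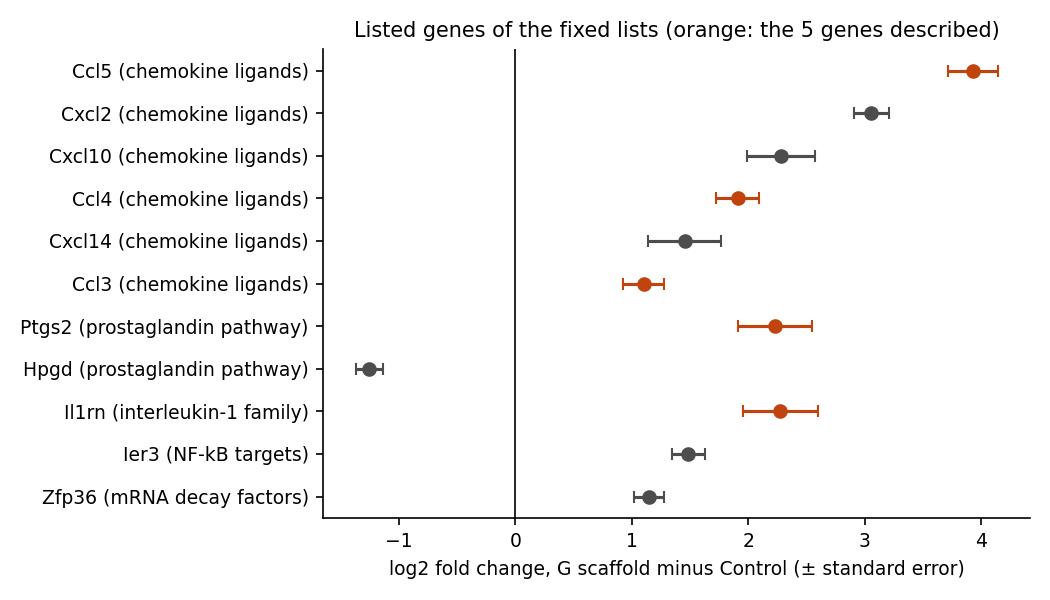
Log2 fold change with its standard error (horizontal axis) for the listed genes of 5 fixed lists that had more than 3 reads over the Control libraries, by list. Hpgd at -1.26 is on the opposite side of 0 from the other genes drawn, and Ccl5 at 3.93 has the highest value. In another scaling (TMM factors) Ccl3 is at -0.38 and Zfp36 at -0.34, and neither is called. That scaling does not decide a direction in a table of called genes.

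The listed genes nearest in profile were found by Euclidean distance over the 6 libraries between log2(normalized count + 1), each taken from its mean in Control. Near to Ccl3 was Ier2, at a distance of 0.269, and both genes have negative values with TMM factors. Nearest to Ccl4 were Fos and Dbn1 (0.227 and 0.475), and nearest to Ccl5 were Mt2 and Fam46c (0.457 and 0.556). For Ptgs2 they were Mir155hg and Vwa1 (0.556 and 0.729), and for Il1rn they were Rnf183 and Ptgs2 itself (0.675 and 0.789). Distances between members ran from 0.789 for Ptgs2 and Il1rn to 4.93 for Ccl3 and Ccl5. This distance weighs the size of the change and the spread between libraries alike, and says nothing of shared control.

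The call of 4 of the 5 genes depended on how the groups were scaled. The alternatives were computed from a table in which 82.6% of the genes were called higher. TMM takes most genes as unchanged, which cannot hold there, so its values do not decide a direction. TMM factors, computed from the table alone, moved the median over its genes by -1.39 on the log2 scale, and column totals moved it by -0.60. The log2 fold changes with TMM factors were -0.38 for Ccl3, 0.43 for Ccl4, 2.54 for Ccl5, 0.78 for Ptgs2 and 0.87 for Il1rn, with 1 of the 5 still called. Column totals kept 4 of the 5, and Ccl3 was at 0.45 there. They take the summed reads of the listed genes as equal between libraries, which cannot be assumed in a table of called genes. These sums ran from 88836 to 100895 in Control and from 150056 to 156029 in the G scaffold group. Measured from the median of the listed genes, Ccl3 was at -0.76 as deposited and -0.86 under TMM, and Ccl5 at 2.07 and 2.06. The order of the 5 by log2 fold change (Ccl3, Ccl4, Ptgs2, Il1rn, Ccl5) was the same in all 3 scalings. Rescaling a library shifts every gene by a like amount, so this order and the distances from the median were nearly fixed in advance. With a pseudocount of 10 the order was Ccl3 (1.09), Il1rn (1.58), Ptgs2 (1.83), Ccl4 (1.84) and Ccl5 (2.91). Without Control replicate 1, Ptgs2 (2.53) lay above Il1rn (2.32).

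**Figure D5:**
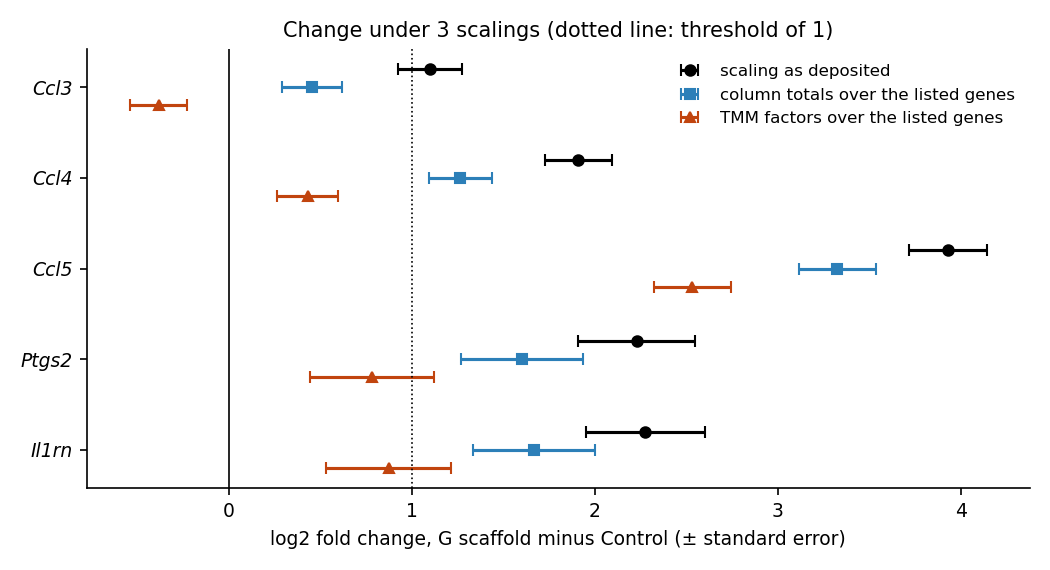
Log2 fold change of each gene with its standard error (horizontal axis) in the scaling as deposited, with column totals and with TMM factors. With TMM factors every gene moves to the left by a like amount, Ccl3 from 1.10 to -0.38 and Ccl5 from 3.93 to 2.54. Both alternatives were computed over called genes and do not decide a direction.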

How the data were processed

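RNA of 3 Control and 3 G scaffold libraries (SMARTER mRNA-Seq kit, per the labels) was analysed from 1 deposited table. Its signal columns hold read counts that the authors divided by a size factor per library. Its gene lengths (other) are listed as deposited. The aligner and counter are not given in the sources used here. The labels name GRCm38 and mm10, whereas 329 of 345 gene identifiers, those of the 5 members included, belong to the SPRET/EiJ annotation. The authors' mean, fold change and p-value columns were not used.

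limma 3.58.1 (R 4.3.3) was fitted to log2(value + 1) of all 345 genes with 1 term for group, no filter and Benjamini-Hochberg adjustment. A call needed an adjusted p up to 0.05 and a log2 fold change of 1 or more in size. The quasi-likelihood test of edgeR 4.0.16, and DESeq2 1.42.0, used the recovered reads. The tests were tried on simulated counts first. No libraries of a group were duplicates (chi-square per degree of freedom from 2.13 to 7.93). The sequencing depth of the libraries is unknown.

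The members, lists and tests were chosen with earlier results of these data known. Named genes were the 5 members, the listed genes of the lists, and the 2 nearest named profiles per member. Results that need items withheld here are not reported. Sequences came from RefSeq (GRCm38.p6) and GENCODE M21. Python 3.11.15, pandas 2.3.3, numpy 2.4.6, scipy 1.17.1, biopython 1.88 and matplotlib 3.10.9 were used.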

Additional observations from a re-analysis of the deposited data

How the results depend on the processing

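As deposited, 340 genes were called, of which 285 were higher and 55 lower, and 5 of 5 members. With TMM factors 193 genes (135 higher, 58 lower) and 1 member were called, and log2 fold changes became -0.38 for Ccl3, 0.43 for Ccl4, 0.78 for Ptgs2 and 0.87 for Il1rn. With column totals Ccl3 was at 0.45 and 4 members were called. Column totals take the summed reads of the listed genes as equal, which cannot be assumed in a table of called genes. TMM takes most genes as unchanged, which cannot hold in a table of called genes. A filter at 10 in every library left 161 genes, of which 156 were called, and 3 members, all 3 called. A filter at a mean of 100 left 92 genes, with 91 called, and 2 members, both called. These filters drop members by construction.

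Leaving out 1 library at a time gave from 328 to 336 called genes and 5 members in each fit. The log2 fold changes ran from 1.0 to 1.21 for Ccl3, from 1.78 to 2.02 for Ccl4, from 3.75 to 4.10 for Ccl5, from 1.93 to 2.53 for Ptgs2 and from 1.94 to 2.57 for Il1rn. Between 6 and 8 of the 10 ratio pairs did not overlap. Leaving out a library can only narrow the ranges, so this count could not fall below 6 and is no check of it. The share over all pairs of listed genes was not counted. With a pseudocount of 10 and all libraries, 5 pairs did not overlap. The differences of Ccl3 to Ccl5 and Ccl4 to Ccl5 then shrank to -1.81 and -1.06. Replicate numbers did not pair the libraries (correlations of same-numbered deviations 0.0047, -0.035 and -0.071), and the fit with a replicate block called 5 members and 339 genes. Of 70 alternative fits of single members, 65 kept direction and call, 4 kept the direction only and 1 reversed. Of the other named genes, Ier2 and Zfp36 reversed with TMM factors, to -0.42 and -0.34. edgeR and DESeq2 on the recovered reads each called 287 genes higher and 58 lower, and all 5 members. Asking for 1.5 on the log2 scale kept 4 members, Ccl3 being lost. Few reads in Control limit Ccl5, Il1rn and Ptgs2.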
